A study of Mus musculus with 2 samples.

Results

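The stromal cells described here are lung cells whose RNA held Wnt11, Krt76 and Lum together with little contractile RNA. They were taken from 2 droplet single-cell libraries, HIR and sham, by counting UMIs, molecular tags that let every captured RNA molecule count once. A barcode was a member when it had at least 200 genes, at most 20% mitochondrial UMIs and no UMI of Ptprc (leukocytes) or Cdh5 (endothelium). Its UMIs of Wnt11, Krt76 and Lum had to sum to at least 2. That sum had to exceed the sum of the adventitial genes Pi16, Sfrp2 and Ccl11 and to reach that of the alveolar genes Cxcl14, Tcf21 and Hsd11b1. The contractile genes Acta2, Tagln and Myl9 had to stay under 0.3% of the UMIs. These criteria found 670 members among 8593 kept HIR barcodes and 631 among 9438 kept sham barcodes, which is 1301 of 18031 in all.

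The HIR library came from wild-type lung taken 6 h after hepatic ischemia-reperfusion, in which blood flow to the liver is stopped and restored, so that the lung is a remote organ. The sham library came from wild-type lung after the operation alone. Each group had 1 library, and the strain, age, sex and number of animals were not given in the sources used here. No difference between HIR and sham therefore has a replicate check, none was tested, and group and library cannot be told apart.

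Fibroblasts of the lung build and anchor the extracellular matrix, and several kinds occupy different places: adventitial fibroblasts in the cuffs around vessels and airways, alveolar fibroblasts in the gas-exchange walls, and contractile cells around airways, vessels and alveolar ducts. Wnt11 and Wnt5a are secreted ligands best known for Wnt signalling that does not run through beta-catenin. Lum encodes lumican and Dcn decorin, small proteoglycans that bind collagen fibrils. Mfap5 encodes a glycoprotein of the microfibrils on which elastin is laid down. Krt76 is a keratin known mainly from squamous epithelium.

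The members were of even depth, with a median of 2875 UMIs in HIR and 2902 in sham, and of 1213 and 1235 genes. Mitochondrial RNA made up a median of 6.54% of UMIs in HIR members and 7.21% in sham members. A few barcodes carried much RNA of other cells. In 21 HIR and 29 sham members, called mixed barcodes below, markers of epithelium, erythroid cells, endothelium or leukocytes held over 1% of UMIs. These barcodes contributed 7.72% of the members' UMIs in HIR and 16.1% in sham. Doublets were not removed, and Scrublet, a doublet caller, marked 15 HIR and 26 sham members. The libraries shared 24 barcode sequences, and 0 of them were members in both.

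The name was checked against 6 markers, of which Wnt11, Lum and Krt76 had chosen the cells and are given only as a description. Levels are CPM, UMIs summed over the members per 1000000 of their UMIs. Wnt11 stood at 479 CPM in HIR and 587 CPM in sham members, Lum at 622 and 802 CPM, and Krt76 at 351 and 420 CPM. All 3 genes were detected together in 27.0% of HIR and 38.8% of sham members. Wnt5a, which the criteria did not use, stood at 159 CPM in HIR and 229 CPM in sham members. In cells picked by the adventitial genes (125 HIR and 246 sham barcodes) Wnt5a had 14.6 CPM in HIR and 25.7 CPM in sham. In contractile cells, with at least 1% of their UMIs from Acta2, Tagln and Myl9 (309 HIR and 567 sham barcodes), it had 88.2 and 131 CPM. Mfap5 and Dcn marked stroma in general, since the adventitial cells had more of both: 1817 and 1792 CPM of Mfap5 and 4364 and 3930 CPM of Dcn, in HIR and sham. The members themselves had 501.5 CPM of Mfap5 in HIR against 851 CPM in sham, and 2659 CPM of Dcn in HIR against 1538 CPM in sham. No level of the barcodes picked by the alveolar genes is set beside the members here, because mixed barcodes held 61.7% of their UMIs in HIR and 50.6% in sham. They did enter the ranking against other stroma, the rule that named genes and 1 alternative denominator of the members' share.

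**Figure D1:**
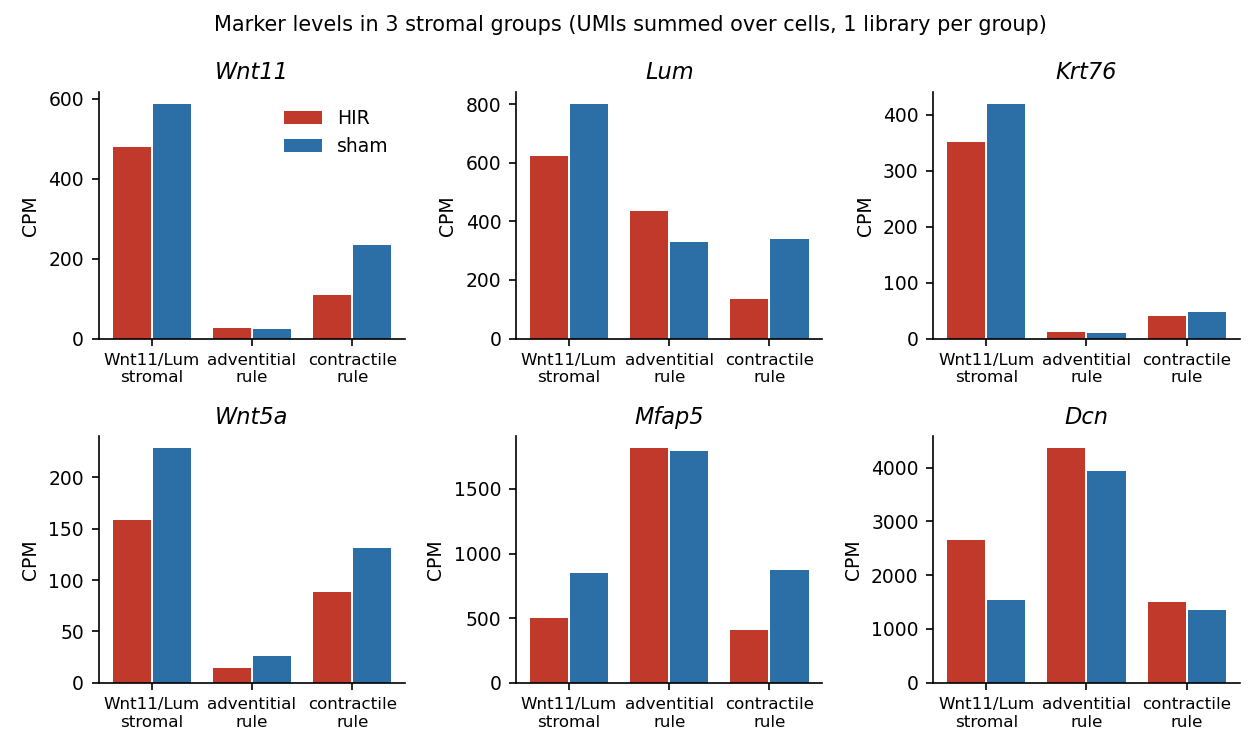
Levels of the 6 markers in CPM (vertical axes) in the Wnt11 and Lum stromal cells, the adventitial cells and the contractile cells, with HIR bars left of sham bars and 1 library per bar. Wnt11 and Krt76 stand far above the adventitial cells by selection, Wnt5a does so without it, and Mfap5 and Dcn are highest in the adventitial cells in both libraries.

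Shares of cells with a marker depend on depth, so each cell was also thinned to 1000 UMIs, which left out 8 HIR and 7 sham members. Dcn was then seen in 78.5% of HIR members and 58.7% of sham members (90.9% and 79.6% before thinning). In barcodes with Ptprc, which should lack Dcn, it was seen in 3.31% and 3.65% after thinning, at median depths of 4982.5 UMIs in HIR and 5490.0 in sham before it. Mfap5 was seen in 37.9% of HIR members and 54.6% of sham members (68.1% and 83.7% before thinning), against 1.54% and 3.51% of barcodes with Ptprc. A larger share of HIR members thus had decorin RNA, and a smaller share had Mfap5 RNA.

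When all kept cells were clustered without the criteria, 1111 of the 1301 members fell in 1 of 36 clusters. That cluster held 936 HIR cells, 585 of them members, and 896 sham cells, 526 of them members. Its Wnt11 level, 426 CPM in HIR and 751 CPM in sham cells, was the highest of any cluster within each library. A neighbouring cluster of 265 HIR and 448 sham cells had 355 and 589 CPM of Wnt11, but 47 and 50 of its cells were members. That neighbour had more of all 3 markers that the criteria did not use: 229 CPM of Wnt5a in HIR and 327 CPM in sham, against 179 and 294 CPM in the members' main cluster. Its Mfap5 level was 894 CPM in HIR and 1711 CPM in sham, against 528 and 991 CPM, and its Dcn level 4252 and 2801 CPM, against 2600 and 1259 CPM. Lum stood at 481 CPM in HIR and 949 CPM in sham there, against 495 and 712 CPM. The independent markers therefore did not set the members' main cluster apart from its neighbour. Over the mean levels of the clusters in each library, 68 points in all, the genes most like Wnt11 among 7457 were Sdc2 (Spearman's rho 0.883), Gsn (0.874), Cys1 (0.869), Pdzrn3 (0.850) and Adamts8 (0.843). The points share libraries and include many clusters with almost no Wnt11, so these values describe likeness only.

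Apart from the markers, the genes highest in the members over the mean of the adventitial, alveolar and contractile cells in both libraries were mostly genes of signalling, secretion and transcription. Rgs16, a brake on G protein signalling, had 337 CPM in HIR and 254 CPM in sham members, against 34.2 and 13.4 CPM in adventitial and 17.2 and 37.1 CPM in contractile cells. Its level was uneven within the members, at 1142 CPM in the sub-cluster led by Cxcl1, Atf3 and Nr4a1 that is described below, and 202 CPM in all other members, over both libraries. Atf3, an immediate early and stress gene, also stood among the 10 highest, with 412 CPM in HIR and 236 CPM in sham members, against 73.2 and 94.5 CPM in adventitial and 20.9 and 38.4 CPM in contractile cells. Atf3 was more uneven than Rgs16, at 1935 CPM in that sub-cluster and 146 CPM in all other members. The immediate early genes Nr4a1 and Ier3 followed outside the 10. Rgs2, of the family of Rgs16, had 293 CPM in HIR and 222 CPM in sham members. Fgf18, a secreted growth factor of lung mesenchyme, had 113 CPM in HIR and 153 CPM in sham members, against at most 68.9 CPM in the adventitial and contractile cells of either library. Tgfbi, a matrix protein induced by TGF-beta, had 258 and 347 CPM in HIR and sham members. Sema3c, a guidance ligand, had 357 and 457 CPM, Etv1, a transcription factor, 209 and 264 CPM, and Pcsk5, a proprotein convertase, 299.8 and 213 CPM. Contractile cells had 138 CPM of Sema3c in HIR and 248 CPM in sham, 117 and 107 CPM of Pcsk5, 110 and 164 CPM of Tgfbi, and 25.4 and 34.9 CPM of Etv1. Barcodes with Cdh5 and no Ptprc had 330 CPM of Sema3c in HIR and 375 CPM in sham, so Sema3c was not particular to the members. Enho, which encodes the secreted peptide adropin, had 250 CPM in HIR and 172 CPM in sham members. These cells were chosen by stromal genes, so the order of such genes is a description of the choice as well as of the cells.

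The members differed among themselves by which of the 3 genes had been caught. Without mixed barcodes, 66 HIR and 36 sham members had Lum only, and 158 HIR and 122 sham members had Wnt11 or Krt76 without Lum. The Lum-only members had 5775 CPM of Dcn in HIR and 5343 CPM in sham, and 13731 and 27310 CPM of Col3a1, the chain of type III collagen. Members without Lum had less of both: 1944 CPM of Dcn in HIR and 789 CPM in sham, and 3895 and 7653 CPM of Col3a1. Rgs16 ran the other way, with 142 CPM in HIR and 112 CPM in sham among the Lum-only members and 409 and 369 CPM among those without Lum. Lum was not particular to the members, since adventitial cells had 434 CPM of it in HIR and 330 CPM in sham. Their Dcn, 4364 and 3930 CPM, was nearer to that of the Lum-only members than to that of members without Lum. Whether the Lum-only members included adventitial cells was not tested. Correlations across single members were too weak in these sparse counts to describe more.

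At the edge of the criteria, 168 HIR and 111 sham barcodes met all conditions but had a sum of 1 UMI, and 147 HIR and 79 sham members had a sum of 2. Dcn was detected in 71.4% of the HIR and 38.7% of the sham barcodes just outside, and in 83.7% of the HIR and 77.2% of the sham members just inside. The median sum was 4 UMIs in HIR and 6 in sham members.

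The members made up 7.80% of kept HIR barcodes (exact 95% interval 7.24 to 8.38) and 6.69% of kept sham barcodes (6.19 to 7.21), a ratio of 1.17 (1.05 to 1.29). All intervals given cover counting error only. This ratio rested on the contractile limit. Without that limit the same criteria held 978 HIR and 1453 sham barcodes, and the ratio turned to 0.739. The limit kept 68.5% of those barcodes in HIR and 43.4% in sham, and left out 308 in HIR and 822 in sham. The median share of Acta2, Tagln and Myl9 among them was 0.125% of UMIs in HIR and 0.374% in sham. A lower contractile level per cell in HIR and a different mix of cells cannot be told apart here. A tighter minimum of 3 UMIs gave a ratio of 1.04, and criteria applied after thinning gave 0.979, so no direction of the share is reported.

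**Figure D2:**
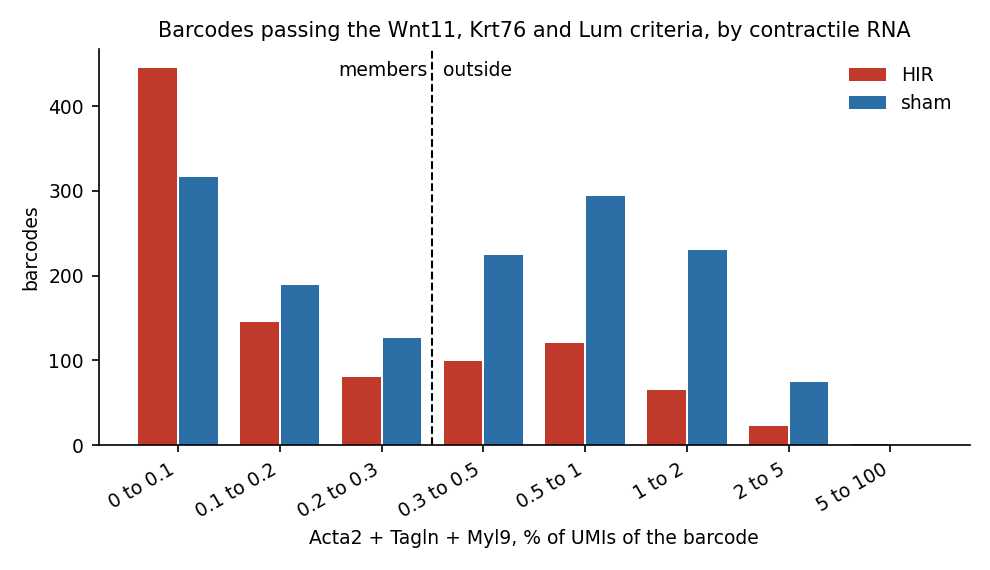
Barcodes that met every criterion other than the contractile limit (vertical axis, number of barcodes), by the percentage of their UMIs from Acta2, Tagln and Myl9 (horizontal axis, bins of unequal width), HIR left of sham. HIR barcodes are most numerous in the lowest bin (445, against 316 in sham), sham barcodes exceed HIR in every bin from 0.1% to 5%, and the dashed line marks the limit of 0.3%.

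Of 5567 genes that reached 20 CPM in the members of HIR or sham, with 20 UMIs or more in total, 65 genes (1.17%) were at least 2-fold higher and 68 (1.22%) at least 2-fold lower in HIR members, with 10 CPM added to both levels. The median log2 ratio of these genes was 0.06, and 56.6% lay above 0. Without mixed barcodes the median was 0.01, with 51% of genes above 0, 1.13% at least 2-fold higher and 0.932% at least 2-fold lower. Fold values below are ratios of CPM with exact 95% counting intervals, and log2 ratios carry the added 10 CPM.

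Genes higher in HIR members are given by what they encode, not by size. Angptl4, a secreted inhibitor of lipoprotein lipase, had 133 CPM in HIR members and 15.8 CPM in sham members, 8.41-fold higher (5.91 to 12.3). Pfkfb3, whose product makes the activator of glycolysis fructose-2,6-bisphosphate, had 106 CPM in HIR and 10.8 CPM in sham members, 9.77-fold higher (6.40 to 15.6). Xdh, which turns xanthine into uric acid, had 250 CPM in HIR and 78.2 CPM in sham members, 3.20-fold higher. Ddit4 and Sesn1, both brakes on the growth kinase mTORC1, had 755 CPM in HIR against 260 CPM in sham, and 208 against 63.7 CPM. These 5 genes were higher in HIR in adventitial and contractile cells as well, with log2 ratios from 0.88 for Sesn1 in adventitial cells to 2.74 for Angptl4 in adventitial cells.

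Secreted proteins, enzymes and a transcription factor were also among the higher genes, and Inmt had the largest ratio of these. Igfbp3, which binds insulin-like growth factors, had 248 CPM in HIR members and 37.97 CPM in sham members, 6.53-fold higher (5.18 to 8.32). It was seen in 14.8% of HIR and 2.40% of sham members after thinning (24.8% and 6.81% before), and in 1.02% and 1.42% of barcodes with Ptprc. Adventitial cells had more Igfbp3 than the members, 1093 CPM in HIR and 443 CPM in sham, and it was seen in 44.7% and 27.0% of them after thinning. Cebpd, a transcription factor of the acute stress response, had 1137 CPM in HIR and 330 CPM in sham members, 3.44-fold higher (3.17 to 3.74). Crispld2, a secreted protein that responds to glucocorticoids, had 121 CPM in HIR and 32.5 CPM in sham members, 3.72-fold higher. Sfrp1, a secreted antagonist of Wnt ligands, had 186 CPM in HIR and 56.5 CPM in sham members, 3.29-fold higher. Cdo1, which breaks down cysteine, had 101 CPM in HIR and 24.4 CPM in sham members, and Csrp2, a LIM domain protein, 234 and 68.3 CPM. Inmt, an amine methyltransferase, had 334 CPM in HIR and 31.2 CPM in sham members, 10.7-fold higher (8.35 to 13.9). Its UMIs came from 99 HIR and 18 sham members, so most members of either library had none. The genes of this paragraph were higher in HIR in adventitial cells as well, from 2.09-fold for Csrp2 to 14.9-fold for Inmt. In contractile cells they were also higher, though Inmt rested there on 4 UMIs in HIR and 2 in sham, and Sfrp1 on 13 and 5.

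Several genes met the naming rule through few barcodes. Apod had 687 UMIs in HIR and 0 in sham members, but 2 HIR barcodes held 597 and 88 of them, and its log2 ratio of 5.05 was 0.14 without the barcodes that Scrublet marked. Clu had 269 UMIs in HIR members, of which 2 barcodes held 149 and 106, and 73 UMIs in sham members. Its log2 ratio of 1.66 turned to -0.90 without the marked barcodes. On the lower side, Scgb1a1, the secretory protein of airway club cells, had 812 CPM in HIR and 15162 CPM in sham members, and 1 sham barcode held 92.8% of its sham UMIs. Without mixed barcodes it had 256 CPM in HIR and 301 CPM in sham. Retnla and Epcam also lay in mixed barcodes, which held 98.9% and 97.1% of their sham UMIs. Epcam turned to a log2 ratio of 0.22 without them, and Retnla, at 1.40 CPM in HIR and 256 CPM in sham over all members, to -0.27.

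Among the lower genes, collagen and elastin maturation and retinoic acid binding were represented. Serpinh1, the collagen chaperone HSP47, had 204 CPM in HIR members and 543 CPM in sham members, 2.66-fold lower (2.38 to 2.98). Loxl1, which cross-links elastin, had 57.4 CPM in HIR and 181 CPM in sham members, 3.16-fold lower (2.57 to 3.89). Crabp1, which binds retinoic acid, had 27.1 CPM in HIR and 102 CPM in sham members, 3.76-fold lower (2.80 to 5.10). It was a leading gene of sub-cluster 3, described below, which held 12.7% of HIR and 28.8% of sham members. In adventitial and contractile cells Crabp1 had at most 8.19 CPM in either library. Of 14 retinoid and xenobiotic genes 8 were higher, a share near the 56.6% of all genes above 0, with a median of 0.36. Past 2-fold were 3 in each direction, against 1.17% of all genes higher and 1.22% lower. Kazald1, a secreted Kazal-domain protein, had 29.9 CPM in HIR and 122 CPM in sham members, 4.08-fold lower (3.10 to 5.45). Clec3b, or tetranectin, had 152 CPM in HIR and 424 CPM in sham members, and Plac9 had 78.9 CPM in HIR and 257 CPM in sham members. Crip1, C1qtnf2, Kdelr3, Rem1 and G0s2, an inhibitor of fat breakdown, were 2.62-fold to 3.29-fold lower.

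**Figure D3:**
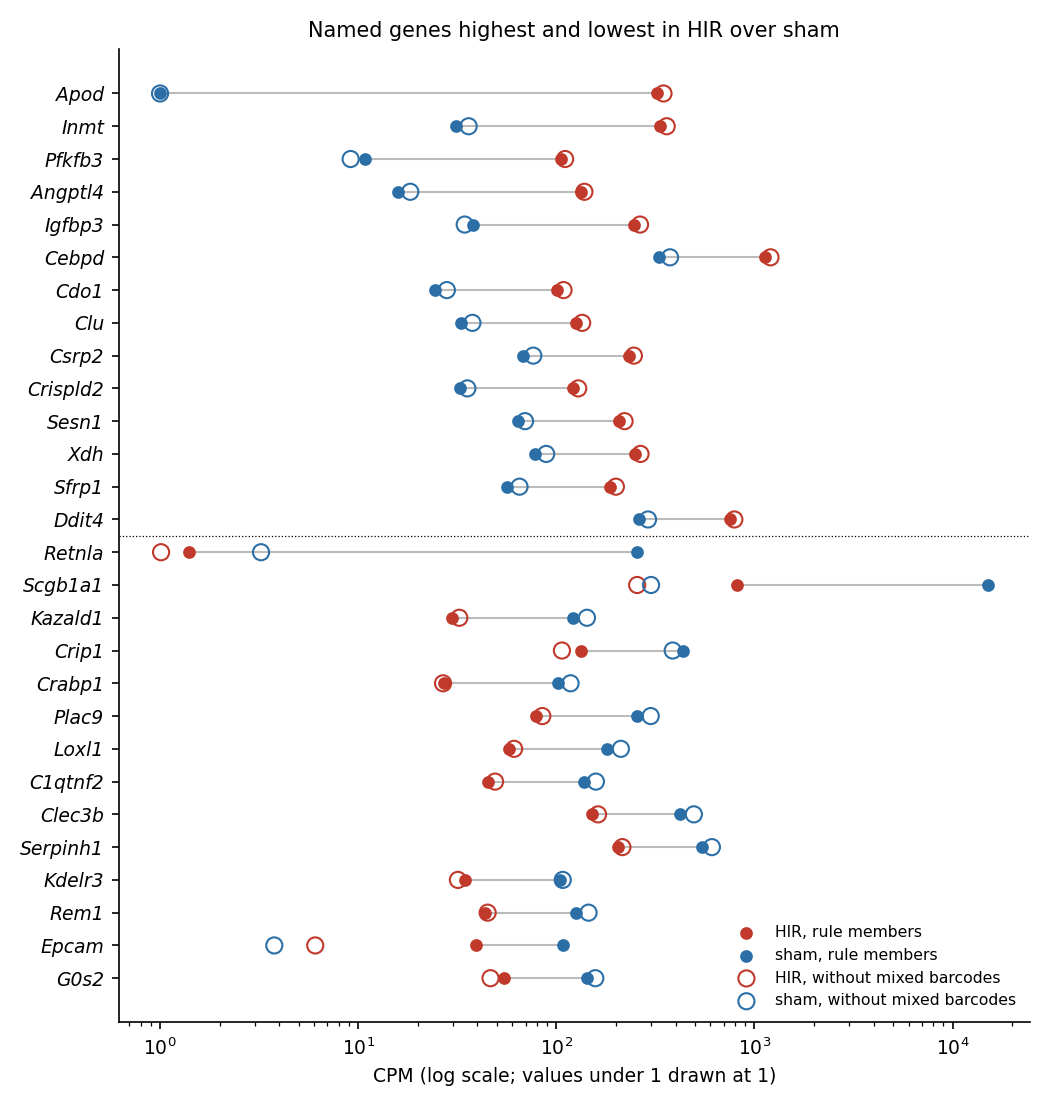
Levels of 14 of the 15 genes with the highest ratio of HIR over sham (above the dotted line) and 14 of the 15 with the lowest (below it), in CPM on a log axis, with filled points for all members and open circles for members without mixed barcodes. For most genes the open circles lie next to the filled points; for Retnla, Scgb1a1 and Epcam they do not.

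The gene lists were read against all genes, of which 56.6% lay above 0, 1.17% were at least 2-fold higher and 1.22% at least 2-fold lower. Of 24 genes of the glucocorticoid response, 21 were higher in HIR members and 10 of them at least 2-fold, against 1.17% of all genes, with a median log2 ratio of 0.84. Tsc22d3, which encodes the glucocorticoid-induced leucine zipper protein, had 3132 CPM in HIR and 1504 CPM in sham members, 2.08-fold higher (2.0 to 2.17). Nfkbia, the inhibitor that holds NF-kB in the cytoplasm, had 1082 CPM in HIR and 401 CPM in sham members, 2.70-fold higher (2.49 to 2.92). Fkbp5, a chaperone of the receptor, had 41.1 CPM in HIR and 18.5 CPM in sham members. Zbtb16, Klf15, Errfi1, Cdkn1a and Pdk4 were the other genes past 2-fold beside Angptl4, Cebpd and Ddit4. Mt1, a metallothionein, was lower, with 63.0 CPM in HIR and 84.1 CPM in sham members. The list median was 1.05 in adventitial and 0.80 in contractile cells, where all genes had medians of 0.11 and 0.02. The receptor itself, Nr3c1, had 104 CPM in HIR and 119 CPM in sham members.

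Growth brakes and FOXO stress genes were higher for 19 of 20, with 5 past 2-fold and a median of 0.52. Among all genes 56.6% were above 0 and 1.17% at least 2-fold higher. Txnip, an inhibitor of thioredoxin and glucose uptake, had 1870 CPM in HIR and 726 CPM in sham members, 2.58-fold higher (2.43 to 2.73). Of 14 genes of fasting-type lipid use, 9 were higher, a share near the 56.6% of all genes above 0. The median was 0.56, and 5 were at least 2-fold higher, against 1.17% of all genes. Cpt1a, which brings fatty acids into mitochondria, had 58.4 CPM in HIR and 23.1 CPM in sham members. Of 15 hypoxia genes, 10 were higher, also near that share, with a median of 0.42, and Pfkfb3, Angptl4, Ddit4 and Ndrg1 were past 2-fold. Vegfa, the vascular growth factor of that list, was lower, at 129 CPM in HIR and 190.3 CPM in sham members. Glycolysis genes had a median of -0.07, with 5 of 12 higher.

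Of 25 NRF2 and oxidative stress genes, 16 were higher, a share near that of all genes, with a median of 0.32. Gpx3, a secreted glutathione peroxidase, was the only one of them past 2-fold, at 6041 CPM in HIR and 2458 CPM in sham members, 2.46-fold higher (2.38 to 2.54). Hmox1, heme oxygenase 1, had 29.9 CPM in HIR and 11.8 CPM in sham members. Of 27 respiratory chain genes 23 were lower, with a median of -0.26, and of 13 heat shock genes 10 were lower, with a median of -0.23. Among all genes 56.6% were above 0.

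Matrix lists differed in direction. Of 17 matrix proteases and inhibitors 8 were higher, with a median of -0.10. Of 17 genes of elastic fibres and microfibrils 16 were lower in HIR members, 2 of them past 2-fold, with a median of -0.51. Among all genes 56.6% were above 0 and 1.22% at least 2-fold lower. Eln, elastin, had 1265 CPM in HIR and 1723 CPM in sham members, 1.36-fold lower (1.30 to 1.43). Fbn1, fibrillin-1, had 218 CPM in HIR and 302 CPM in sham members, and Adamts10, a protease of microfibrils, 153 and 330 CPM. The list median was 0.10 in adventitial cells and -0.28 in contractile cells. The difference between the cell sets was not tested.

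Of 18 genes of collagen folding and processing 16 were lower, with a median of -0.42. Serpinh1 and Loxl1 were past 2-fold, against 1.22% of all genes at least 2-fold lower and 56.6% above 0. The collagen chains themselves divided, with 7 of 15 higher and a median of -0.18. Col1a1, of type I collagen, had 2336 CPM in HIR and 3662 CPM in sham members, 1.57-fold lower (1.51 to 1.62). Col3a1 had 5501 CPM in HIR and 9820 CPM in sham members, 1.79-fold lower (1.75 to 1.83). Col4a1, a chain of basement membrane collagen, had 417 CPM in HIR and 354 CPM in sham members. Among small proteoglycans other than Lum, Bgn, Prelp, Aspn and Ogn were lower, with a median of -0.52 over 5 genes, and Dcn was higher, by 1.73-fold (1.66 to 1.80). Mgp, an inhibitor of calcification, had 12044 CPM in HIR and 6259 CPM in sham members, 1.92-fold higher (1.89 to 1.96).

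Genes that respond to TGF-beta or to tension were lower for 20 of 24, with a median of -0.47, while 56.6% of all genes were above 0. Ccn2, or connective tissue growth factor, had 139 CPM in HIR and 330 CPM in sham members, 2.38-fold lower (2.08 to 2.73). Pmepa1, a TGF-beta target that feeds back on the pathway, had 149 CPM in HIR and 323 CPM in sham members. Tpm1 and Tpm2, tropomyosins, had 305 CPM each in HIR, and 452 and 423 CPM in sham. The contractile limit acts on related genes, and with no such limit the list median was also negative; over the 19 alternatives tried it lay between -0.74 and -0.36.

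The IGF system was divided. Igf1, the growth factor, had 53.2 CPM in HIR and 138 CPM in sham members, 2.59-fold lower (2.08 to 3.24). Igfbp4 and Igfbp5, which bind it, had 125 CPM in HIR against 282 CPM in sham, and 118 against 219 CPM, whereas Igfbp3 was higher as given above. Igfbp5 differed by subset, without mixed barcodes. Members with Lum had 48.7 CPM of it in HIR and 259 CPM in sham. Members without Lum had 358 and 245 CPM, a ratio of 1.46 (1.13 to 1.90). Members with Krt76 had 38.5 CPM in HIR and 155 CPM in sham, a ratio of 0.248 (0.174 to 0.346). Over all members Igfbp5 was seen in 8.06% in HIR and 26.8% in sham, so its HIR levels rested on few barcodes. The counting intervals do not cover such unevenness. In all, 7 of 10 genes were lower, with a median of -0.38, while 56.6% of all genes were above 0.

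Wnt genes did not share a direction. Wnt6 had 43.0 CPM in HIR and 15.8 CPM in sham members, 2.72-fold higher (1.82 to 4.13). Wnt5a was 1.44-fold lower (1.25 to 1.66). The antagonists Wif1 and Notum had 104 CPM in HIR against 168 CPM in sham, and 69.1 against 122 CPM, while Sfrp1 was higher and Dkk3 had 142 and 129 CPM. Notum was also a leading gene of sub-cluster 3, at 310 CPM there and 44.0 CPM in other members, over both libraries. Of 7 receptors and co-receptors 4 were higher, with a median of 0.27. Of these, Ror1, a receptor for Wnt5a, had 28.5 CPM in HIR and 11.3 CPM in sham members, and Fzd1, a frizzled receptor, 167 and 189 CPM. Among targets of beta-catenin, Axin2, a feedback inhibitor, had 44.8 CPM in HIR and 46.6 CPM in sham members.

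Of 14 NF-kB response genes 10 were higher, against 56.6% of all genes, with a median of 0.23. The NF-kB inhibitor Nfkbia had the highest ratio. Inflammatory products of the list were not high in level over all members. Cxcl1, a neutrophil chemokine, had 190.5 CPM in HIR and 167 CPM in sham members, with a ratio of 1.14 (0.987 to 1.31). It was uneven, at 1200 CPM in sub-cluster 4, described below, and 67.0 CPM in all other members, over both libraries. Ccl2, a monocyte chemokine, had 45.8 CPM in HIR and 74.1 CPM in sham, and Vcam1, an adhesion molecule, 7.0 and 28.5 CPM. Il1b had 54.2 CPM in HIR and 25.3 CPM in sham, and mixed barcodes held 52.6% of its HIR UMIs. The 5 neutrophil markers summed to 1148 CPM in HIR and 159 CPM in sham members, and to 432 and 70.1 CPM without mixed barcodes, where Cxcr2 was at 0 in both; their part in these results was not tested.

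All 20 immediate early genes, which tissue digestion can induce, were higher in HIR members, against 56.6% of all genes, with none past 2-fold and a median of 0.46. Fos had 3664 CPM in HIR and 2567 CPM in sham members, and Atf3 412 and 236 CPM. Atf3 was a leading gene of sub-cluster 4, described below, which held 81 HIR and 37 sham members. The list median was 0.33 without mixed barcodes, 0.20 in adventitial cells and -0.28 in contractile cells. The part of the immediate early genes in the other results was not tested.

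Gal, the neuropeptide galanin, was found by its place in the vasoactive list. It had 85.0 CPM in HIR and 2.26 CPM in sham members, from 182 and 5 UMIs, a ratio of 37.6 (15.8 to 117). Its UMIs lay in 38 HIR and 3 sham members. Without mixed barcodes, the 66 HIR and 36 sham members with Lum only had 476 CPM in HIR and 13.2 CPM in sham. The 158 HIR and 122 sham members without Lum had 18.1 and 0 CPM. The adventitial cells had 155 CPM in HIR and 4.11 CPM in sham, and the contractile cells 339 and 25.9 CPM.

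**Figure D4:**
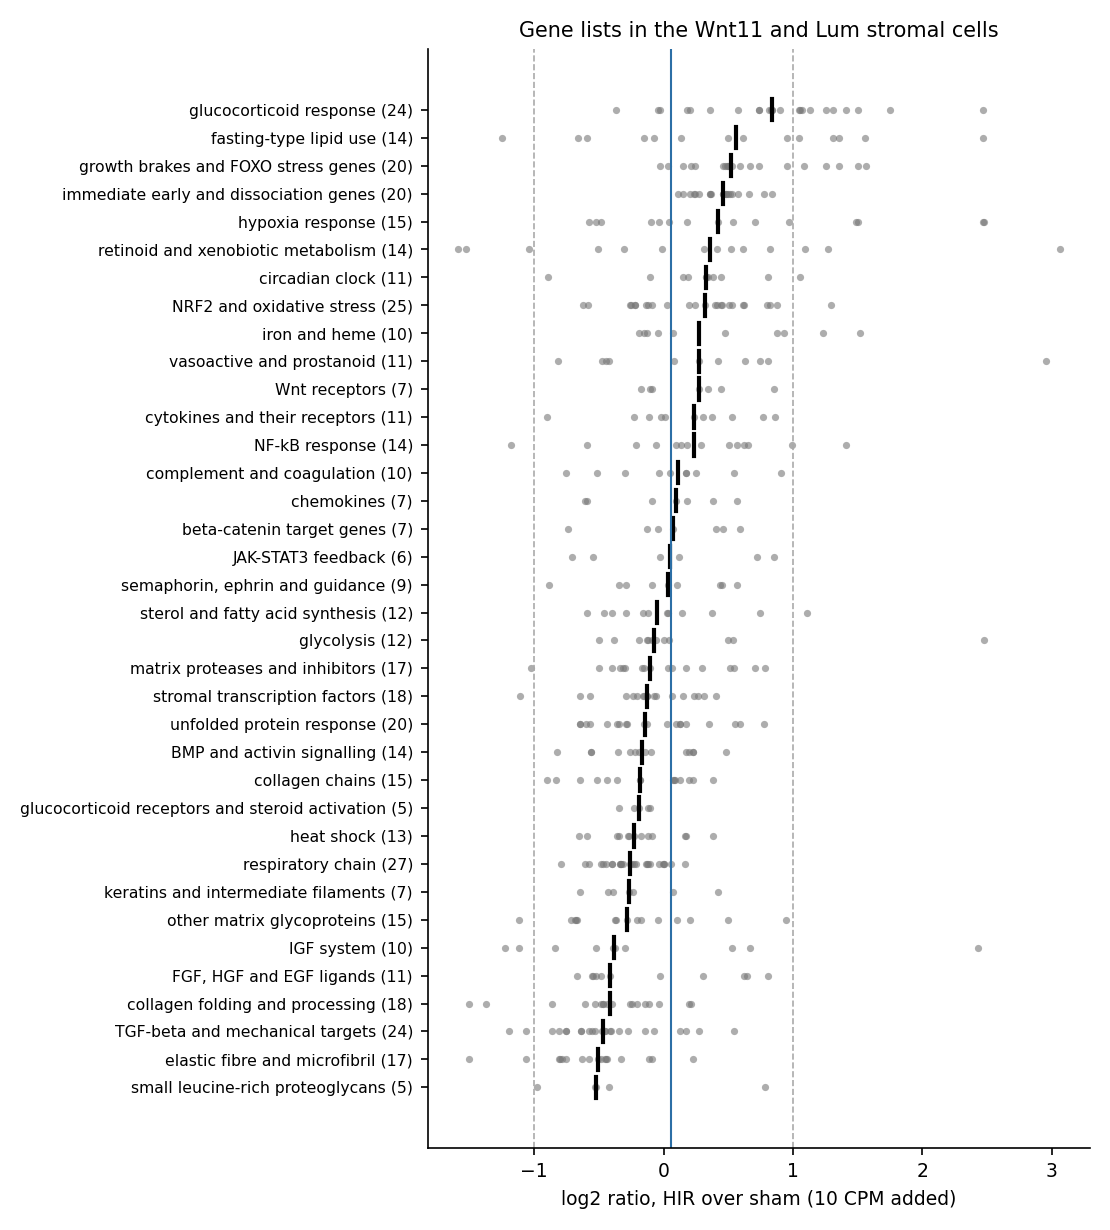
Log2 ratios of HIR over sham with 10 CPM added (horizontal axis) for the eligible genes of each list with at least 5 of them (grey points), with list medians as black bars and the number of genes in brackets. The solid line is the median of all genes, 0.06, and dashed lines mark 2-fold; the glucocorticoid response lies highest and the small proteoglycans and elastic fibre genes lowest.

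Clustering of the members alone gave 8 sub-clusters, and the 2 most numerous divided by library. Sub-cluster 1 held 430 HIR and 20 sham members and was led by Inmt, Pfkfb3 and Csrp2. Sub-cluster 2 held 38 HIR and 339 sham members and was led by Cldn11, a tight junction gene, Slitrk6 and Aldh3a1. Their leading genes are those that differ between the libraries, so their sizes are not a result. Sub-cluster 4, with 81 HIR and 37 sham members, was led by the chemokine Cxcl1 and by Atf3 and Nr4a1, which are immediate early and stress genes. Irf1 and Nfkbiz were also among its leading genes. Sub-cluster 5, with 16 HIR and 20 sham members, was led by Apod, Serpinf1 and Gpc3. Apod led it through the few HIR barcodes given above and had 0 UMIs in sham members, so it did not mark the sub-cluster as a whole. Other leading genes were Col14a1, which like Serpinf1 is on the adventitial marker list, and Msln, on the mesothelial list. Sub-clusters 6 and 8, with 24 and 12 members, were led by surfactant and hemoglobin genes and held mixed barcodes only. Sub-cluster 7, with 7 HIR and 10 sham members, was led by the neutrophil genes S100a9 and S100a8, and 7 of its 17 members were mixed barcodes.

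Sub-cluster 3 was the only one with at least 50 cells of both libraries, 85 from HIR and 182 from sham. Higd1b, Notum, Apoc4, Ltbp2 and Crabp1 led it, and it was given no name. Within it Igfbp3 had 487 CPM in HIR and 11.9 CPM in sham cells, from 128 and 7 UMIs, a ratio of 41.0 (19.3 to 104). Serpinh1 had 206 CPM in HIR and 568 CPM in sham cells, and Loxl1 95.2 and 240 CPM, lower in HIR as over all members. Crabp1 had 87.6 CPM in HIR and 195 CPM in sham cells, a ratio of 0.448 (0.273 to 0.706). That was a smaller difference than over all members. Glucocorticoid response genes were higher for 16 of 18, with a median of 0.62, and elastic fibre genes lower for 12 of 14, with a median of -0.39. Eln itself was higher there, at 2582 CPM in HIR and 1909 CPM in sham cells. Several other lists had a median of the opposite sign to that over all members. Immediate early genes were higher for 4 of 20, with a median of -0.25. Collagen chains were higher for 8 of 11, with a median of 0.23, and matrix proteases and inhibitors for 11 of 16, with a median of 0.33. NF-kB response genes were higher for 5 of 10, with a median of -0.10. The share of all genes above 0 within sub-cluster 3 was not computed. The list counts and medians given for it therefore have no background, and their signs are a description only.

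**Figure D5:**
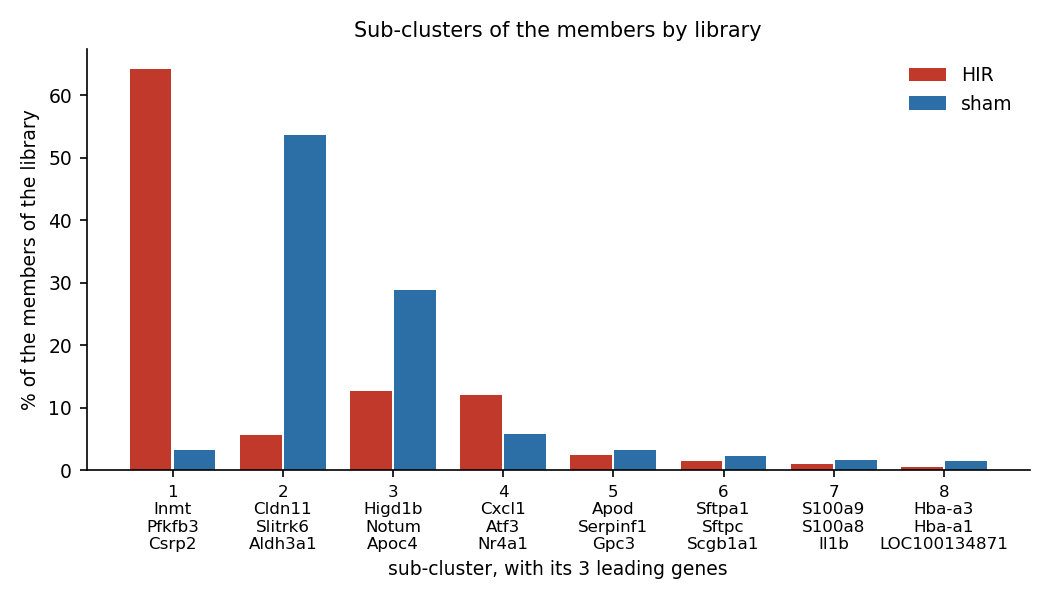
Percentage of the HIR members (left bars) and sham members (right bars) in each sub-cluster (horizontal axis, with 3 leading genes each). Sub-cluster 1 holds 64.2% of HIR and 3.17% of sham members, sub-cluster 2 holds 5.67% and 53.7%, and sub-cluster 3 holds 12.7% and 28.8%.

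Mixed barcodes were chosen by markers of epithelium, erythroid cells, endothelium and leukocytes, and not by markers of other stromal cells. The fall of epithelial and erythroid sums without these barcodes is therefore set by the choice and is only a description. The 6 type 2 epithelial markers summed to 11287 CPM in HIR and 17294 CPM in sham members, and to 530 and 457 CPM without mixed barcodes. The 5 erythroid markers summed to 4806 and 14991 CPM, and to 531 and 646 CPM without them. Chondrocyte markers summed to 5.14 CPM in HIR and 3.16 CPM in sham, with Col2a1, Cnmd and Matn1 at 0 in both, and Schwann cell markers to 5.60 and 2.71 CPM, with Sox10 and Cdh19 at 0 in both. The 8 smooth muscle and myofibroblast markers summed to 981 CPM in HIR and 1252 CPM in sham members, and to 1042 and 1346 CPM without mixed barcodes. The 8 adventitial markers, which include genes of the criteria, summed to 303 CPM in HIR and 638 CPM in sham members, and to 321 and 742 CPM without them. Pericyte markers, 9 in all, summed to 283 CPM in HIR and 537 CPM in sham members, and to 302 and 612 CPM without them, with Notch3 at 0 in both. For the 10 alveolar fibroblast markers the sums were 485 CPM in HIR and 309 CPM in sham members, and 507 and 294 CPM without them, with Wnt2 at 0 in both. The 6 peribronchial markers summed to 242 CPM in HIR and 305 CPM in sham members, and the 6 mesothelial markers to 86.4 and 64.2 CPM, with Lrrn4 at 0 in both. Adventitial and pericyte sums were thus lower in HIR members. Clec3b, on the adventitial list, had 152 CPM in HIR and 424 CPM in sham. Higd1b, on the pericyte list, led sub-cluster 3, which held 12.7% of HIR and 28.8% of sham members. The alveolar fibroblast sum was higher through Inmt, a gene of that list, at 334 CPM in HIR and 31.2 CPM in sham. Its other markers together were lower in HIR. The part of these markers in the results was not tested.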

How the data were processed

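Lungs were digested and profiled on the 10x Genomics platform, per the labels' protocols. The authors deposited UMI counts per gene and barcode. Cell Ranger 6.0, STAR, Seurat 4.0 and the build mm10 are named in the submitters' processing notes, while the file headers name cellranger 5.0.0. The labels say mouse, but all 32883 features carry rat Ensembl identifiers, so symbols were read as rat symbols. A mismatch of species would change which genes are counted and at what level, and this was not tested. Sequences are not used here. Libraries held 9499 barcodes and 50801778 UMIs (HIR) and 10719 barcodes and 59566745 UMIs (sham).

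Members were summed per library (2141575 UMIs in HIR, 2212160 in sham), as CPM. With 1 library per group no test was run; ratios have exact 95% intervals for counting error. Members, lists and rules were chosen with earlier results of these data known. The mixed-barcode and no-contractile-limit settings were chosen after seeing the data. Named genes were the 15 highest and 15 lowest by log2 ratio among genes with at least 100 CPM in either library, 50 UMIs, an interval leaving out 1 and at least 5% of the level in the richest class, and the 10 most above other stroma. Some genes that met this rule are not reported here. Rule genes, mitochondrial, ribosomal, hemoglobin and sex-linked genes were left out. Of 1028 listed genes 992 were matched in the features. Clusters came from scanpy 1.11.5 and igraph 0.11.9 (2000 variable genes, 20 components for members, 15 neighbours), and edgeR 4.0.16 gave the TMM factor. Ratios and intervals were run on simulated counts drawn independently for each gene, which is what the intervals assume. The simulation had no uneven spread of UMIs over barcodes, so it cannot show how the intervals hold for genes with such a spread.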

Additional observations from a re-analysis of the deposited data

Results flagged for a closer look

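Clu had a log2 ratio of 1.66 in the Wnt11 and Lum stromal cells and of -0.63 in the adventitial cells, opposite directions in the same HIR over sham contrast; the difference was not tested. In the Wnt11 and Lum stromal cells 2 barcodes held 149 and 106 of its 269 HIR UMIs, and without the barcodes that Scrublet marked its log2 ratio was -0.90, the direction of the adventitial cells. Scgb1a1 had a log2 ratio of -4.21 in the Wnt11 and Lum stromal cells and of 0.19 in the contractile cells; this difference was not tested either, and 1 barcode held 92.8% of its sham UMIs in the Wnt11 and Lum stromal cells.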

How the results depend on the processing

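No paired analysis was possible because each group has 1 library. The share ratio of 1.17 became 1.04 with a sum of 3 UMIs and 1.34 among the 3 fibroblast criteria. It turned to 0.851 with a contractile limit of 1%, 0.739 without that limit, 0.736 without the adventitial sum as well and 0.979 with criteria applied after thinning; the cause was not tested. The percentage of genes at least 2-fold higher was 1.96 with thinned members, 2.75 with criteria after thinning, 2.57 and 0.467 with 1 and 50 CPM added, 0.447 with no minimum level and 1.81 with a minimum of 50 CPM. The percentage lower was 3.02 with criteria after thinning, 1.99 and 0.377 with 1 and 50 CPM added, and 0.506 with no minimum. Clu reversed to -0.90 without Scrublet doublets and -0.31 with criteria after thinning, and Epcam to 0.22 without mixed barcodes and 0.64 with thinned members. Rgs16 and Pcsk5 also changed sign with criteria after thinning (-0.33 and -0.21). Of 765 values of named genes under alternatives, 115 moved and 4 reversed. Of 673 list medians 10 moved. That of collagen chains ranged from -0.25 to 0.08 and that of immediate early genes from 0.15 to 0.47. The glucocorticoid median stayed between 0.65 and 0.94, and the elastic fibre median between -0.62 and -0.39.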
